A study of Mus musculus with 76 samples.

Results

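The 10 genes described here encode the catalytic subunits of the proteasome and the proteases and uptake receptor that cortical thymic epithelial cells (cTECs) use to make self peptides. They were taken by gene name from a list of 10 names among the 55487 gene identifiers that each table holds, and all 10 were found once. Psmb5, Psmb6 and Psmb7 are the catalytic beta subunits of the constitutive proteasome. In the immunoproteasome Psmb8 replaces Psmb5, Psmb9 replaces Psmb6 and Psmb10 replaces Psmb7, and Psmb11 (beta 5t) is the replacement for Psmb5 and Psmb8 in the thymoproteasome. Prss16 is the thymus-specific serine protease, Ctsl is cathepsin L, and Ly75 is DEC-205, an endocytic receptor often used to mark cTECs.

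Proteasomes cut proteins in the cytosol into the peptides that MHC class I presents, and the catalytic subunit in each of their active sites decides where they cut. In the thymus cortex, cTECs carry a proteasome form with beta 5t and show its peptides to developing CD8 T cells during positive selection. Cathepsin L and Prss16 act in the endosomal pathway that supplies MHC class II peptides to developing CD4 T cells, while medullary thymic epithelial cells (mTECs) present tissue-restricted antigens under the control of Aire.

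The study compared mice of an amyotrophic lateral sclerosis model with wild-type (WT) mice, and its labels give the strain of all 76 libraries, WT included, as SOD1-G93A. Mutant mice, labelled Sod1Mut and called SOD1 here, carry a mutant human SOD1 transgene, and human disease alleles of SOD1 cause inherited forms of the disease. cTECs, mTECs, regulatory T cells (Tregs) and CD4 T cells were sorted from digested thymus at day 30 and day 120, with 3 libraries for each genotype and day except for WT cTECs and WT CD4 T cells at day 30, which had 2. Whole thymus and whole inguinal lymph node at day 120 had 3 libraries for each genotype, and cultures, titled Tregdiff and labelled as Tregs in vitro, had 3 for each genotype without activation (T0) and at 2 activation times that the labels call T2 and T20 without a unit. The labels give the genotype of each library, and the age of each except the cultures, whose age is not given. They do not give the animal, sex or number of pooled animals of a library, so p-values measure the spread between libraries, which may be partly technical.

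Total counts ran from 1269529 to 16776303 in cTEC libraries, from 15135 to 36919936 in mTEC, from 1944589 to 34151147 in Treg, from 837050 to 14047347 in CD4, from 171619 to 19699330 in culture and from 63887 to 894958 in lymph node libraries. In 8 libraries the total was under 300000 counts or fewer than 8000 genes were detected, which are called libraries of few counts or genes here. Among them cTEC d120 SOD1 replicate 3 had 1836483 counts, more than 1 WT library of its day, but only 7627 genes, and mTEC d30 SOD1 replicate 1 had 15135 counts and 5556 genes. Sod1 counts placed every SOD1 library above every WT library in 12 of 13 sets of libraries, where a set is 1 population at 1 day or culture time. Foxn1, the transcription factor that thymic epithelium needs, stayed between 49.4 and 332 CPM (counts scaled to a common library size) in cTEC libraries, and Aire stayed between 619 and 2039 CPM in mTEC libraries against at most 26.2 in cTEC libraries. Whole marker lists separated them less. Summed mTEC markers overlapped, at 1399 to 2252 CPM in cTECs and 1927 to 5336 in mTECs of day 30. At day 120 these ranges were 1853 to 8511 and 6035 to 11389 CPM. Summed cTEC markers were apart at day 30, at 6338 to 20579 CPM in cTECs and 1858 to 4488 in mTECs. At day 120 they overlapped, at 8161 to 22090 and 5065 to 8195 CPM. Foxp3, the lineage factor of Tregs, ranged from 33.5 to 265 CPM in Treg libraries and from 5.9 to 25.2 in CD4 libraries. In the T0 cultures Foxp3 was at 3.56 to 31.8 CPM and 10 Treg signature genes summed to 108 to 581 CPM, below every sorted Treg library (1384 to 3110) and every sorted CD4 library (1067 to 1953), so these markers go against the Treg label at T0. The libraries of the 2 days carry different naming schemes in the labels, so day and library set cannot be told apart.

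Psmb11 and Psmb5 lie next to each other on mouse chromosome 14 of mm10, with Psmb5 on the minus strand at 54614119 to 54618022, Psmb11 on the plus strand at 54621433 to 54629556, and 3410 bases between the gene bodies. Psmb8 (plus strand, 34197721 to 34201454) and Psmb9 (minus strand, 34181987 to 34187764) are neighbours on chromosome 17 in the MHC region. The 250 bases before the RefSeq start of these 4 genes are shown because the first pair differed in how it varied between epithelial populations and so did the second. The Psmb11 window is chr14:54625060-54625309 on the plus strand, which lies inside the longer gene span of the annotation used for counting. The Psmb5 window is chr14:54617996-54618245 on the minus strand, the Psmb8 window chr17:34197945-34198194 on the plus strand and the Psmb9 window chr17:34187331-34187580 on the minus strand, all from RefSeq on build GRCm38.p6. The Psmb8 and Psmb9 windows also lie inside the gene spans of that annotation, and the Psmb5 window reaches into its span. Capitals mark matches on either strand to 3 short motifs, which are a core of interferon response elements with GAAA, 2 bases of any kind and GAAA again, TTCNNNGAA, a core of STAT sites, and GACGC, the core that Foxn1 binds.
Psmb11: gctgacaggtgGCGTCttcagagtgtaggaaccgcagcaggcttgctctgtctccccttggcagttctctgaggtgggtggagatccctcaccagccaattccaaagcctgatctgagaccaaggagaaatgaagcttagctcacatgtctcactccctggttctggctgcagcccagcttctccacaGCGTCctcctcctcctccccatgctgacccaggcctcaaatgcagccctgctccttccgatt
Psmb5: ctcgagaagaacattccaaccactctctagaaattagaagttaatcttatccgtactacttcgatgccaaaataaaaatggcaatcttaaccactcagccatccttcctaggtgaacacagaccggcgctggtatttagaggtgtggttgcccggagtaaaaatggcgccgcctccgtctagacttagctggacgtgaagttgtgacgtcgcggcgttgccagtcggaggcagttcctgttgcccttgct
Psmb8: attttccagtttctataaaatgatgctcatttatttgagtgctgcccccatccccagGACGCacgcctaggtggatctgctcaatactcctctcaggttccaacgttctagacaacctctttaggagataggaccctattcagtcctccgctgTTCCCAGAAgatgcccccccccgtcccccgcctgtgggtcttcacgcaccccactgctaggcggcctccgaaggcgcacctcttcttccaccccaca
Psmb9: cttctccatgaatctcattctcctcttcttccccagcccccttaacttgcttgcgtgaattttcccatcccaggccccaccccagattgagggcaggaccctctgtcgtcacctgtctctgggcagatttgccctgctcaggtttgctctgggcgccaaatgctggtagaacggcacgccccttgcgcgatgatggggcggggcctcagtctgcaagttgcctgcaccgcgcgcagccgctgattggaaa

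Psmb11 held GACGC at 2 places, starting 239 and 62 bases before its start. Psmb8 held GACGC 193 bases and TTCNNNGAA 97 bases before its start, with no overlap between matches. No match was found in the Psmb5 and Psmb9 windows, nor in those of Psmb6, Psmb10, Ctsl and Ly75, which says only that these letters are absent from these windows. Of all 32851 RefSeq windows of this length, 22.6% held GACGC, 7.02% held TTCNNNGAA and 2.98% held the interferon response element core.

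The first question was how the 10 genes differ between the epithelial cells of cortex and medulla. At day 30, 7 of the 10 were higher in cTECs than in mTECs and none was lower, where 22.3% of all 21733 genes tested were called and 5.69% were called higher. The median log2 difference was 1.52 over the 10 genes and -0.03 over all genes tested. The 3 constitutive subunits were not among the 7. At day 120, 5 were higher and Psmb8 was lower, with 28.7% of all genes called, 4.97% higher and 23.7% lower, and medians of 0.55 over the 10 genes and -0.62 over all genes.

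**Figure D1:**
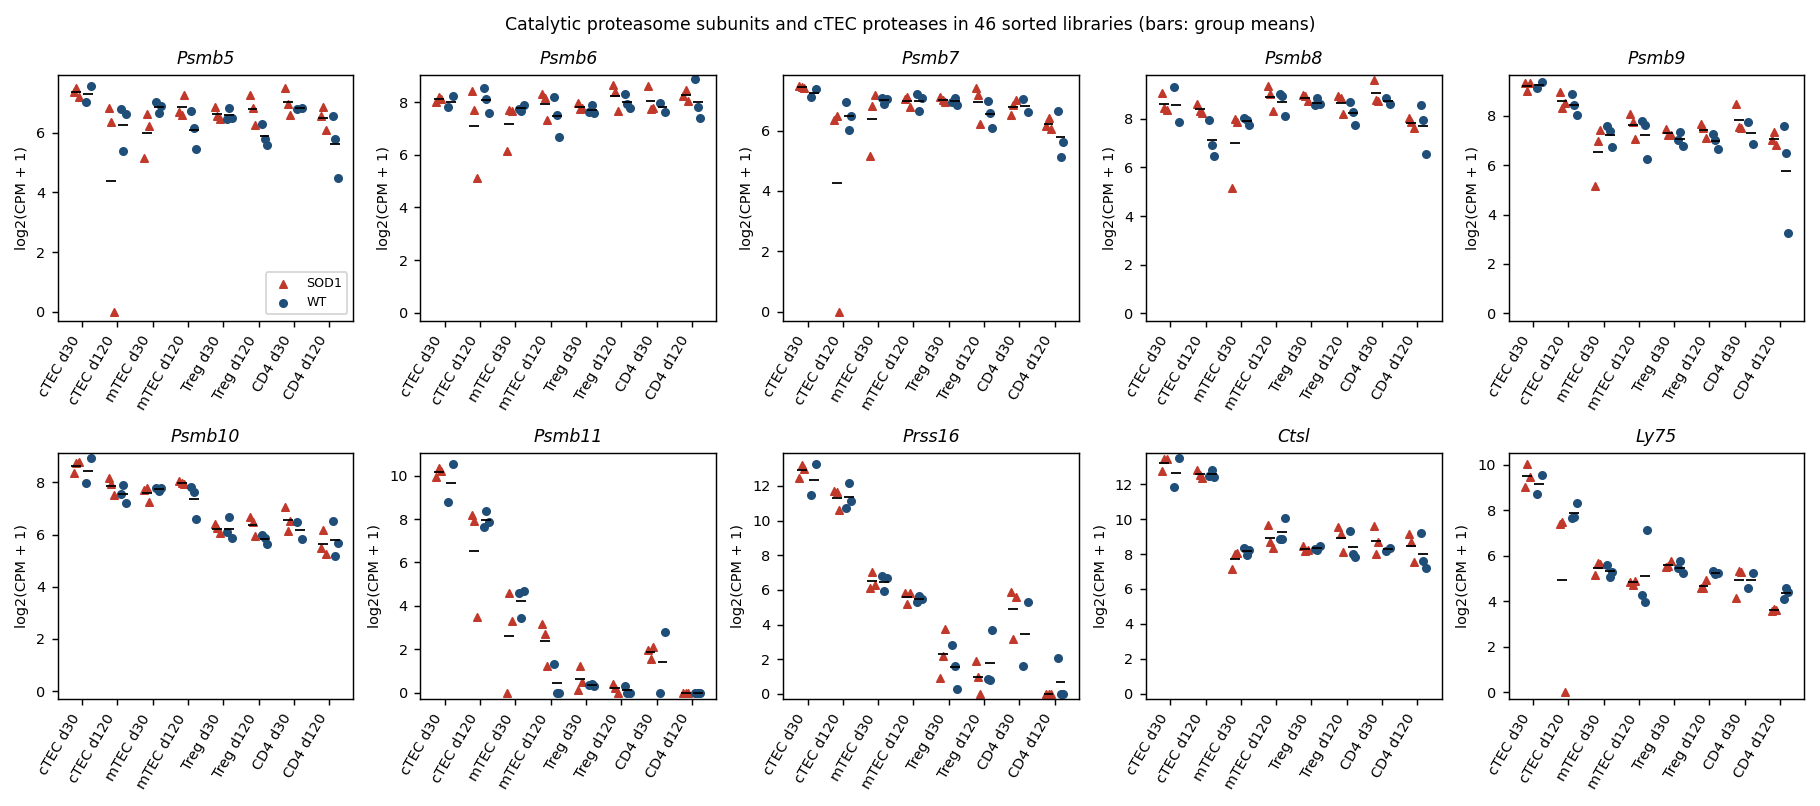
Level of each of the 10 genes, as log2(CPM + 1) on the y axis, in the 46 sorted libraries, grouped on the x axis by population and day, with triangles for SOD1, circles for WT and bars for group means. Psmb11, Prss16 and Ctsl stand high in cTEC libraries at both days, while Psmb5, Psmb6 and Psmb7 sit at similar heights in all 4 populations.

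Psmb11, the thymoproteasome subunit, was at 979, 1306 and 1202 CPM in the SOD1 cTEC libraries of day 30 and at 442 and 1472 in the WT ones. The mTEC libraries of that day had 0, 22.7 and 8.78 CPM in SOD1 and 23.1, 9.83 and 24.99 in WT. Every cTEC library therefore lay above every mTEC library, and the log2 difference was 5.95 ± 0.78 (SE; edgeR adjusted p = 3.57e-06). At day 120 cTEC libraries had 290, 243 and 10.02 CPM in SOD1 and 199.98, 332 and 229 in WT. The mTEC libraries of day 120 had 7.96, 5.58 and 1.32 CPM in SOD1 and 1.48, 0 and 0 in WT. The groups again did not overlap, with a log2 difference of 6.82 ± 0.79 (edgeR adjusted p = 1.28e-07). The cTEC library at 10.02 CPM was the one of few genes, with 15 counts of Psmb11. With 1 library left out the difference ranged from 6.56 to 9.47, the highest without mTEC d120 WT replicate 1, where both other WT mTEC libraries were at 0, so its size is uncertain.

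Prss16 showed the same separation. Its cTEC level was 5702, 9567 and 8012 CPM in SOD1 and 2875 and 9709 in WT at day 30, and its mTEC level was 68.8, 131 and 77.2 in SOD1 and 109, 60.4 and 103.07 in WT. No library of one population reached the other, and the log2 difference was 6.21 ± 0.81 (edgeR adjusted p = 2.50e-06). At day 120 the cTEC range was 1555 to 4564 CPM with a median of 2735 and the mTEC range was 35.4 to 55.3 with a median of 46.2, a log2 difference of 5.91 ± 0.78 (edgeR adjusted p = 8.91e-07).

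Ctsl, the lysosomal cysteine protease cathepsin L, followed. At day 30 it was at 7000, 10939 and 11088 CPM in SOD1 cTEC libraries and at 3705 and 11376 in WT. In mTEC libraries it was at 138, 254 and 271 in SOD1 and 324, 242 and 303 in WT, so the populations were far apart, with a log2 difference of 5.03 ± 0.40 (edgeR adjusted p = 3.76e-11). At day 120 the difference was 3.39 ± 0.37 (edgeR adjusted p = 1.82e-08), with cTEC libraries between 5159 and 7279 CPM and mTEC libraries between 325 and 1068. The library at 1068 CPM, mTEC d120 WT replicate 3, also had the highest Ly75 among mTEC libraries.

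Ly75, the DEC-205 receptor, was at 514, 1037 and 710 CPM in SOD1 and 422 and 753 in WT cTEC libraries of day 30. The mTEC libraries lay between 32.7 and 49.8 CPM, and the log2 difference was 3.94 ± 0.59 (edgeR adjusted p = 1.95e-05). At day 120 the cTEC libraries had 166, 176 and 0 CPM in SOD1 and 199, 207 and 323 in WT, where the 0 belongs to the library of few genes. The mTEC libraries had 28.0, 25.5 and 29.0 in SOD1 and 18.5, 14.4 and 139 in WT. Leaving the library at 0 aside the groups did not overlap, and over all libraries the log2 difference was 2.07 ± 0.52 (edgeR adjusted p = 0.00277).

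Among the immunoproteasome subunits, Psmb9 was the one with the clearest difference. At day 30 it had 640, 516 and 637 CPM in SOD1 and 560 and 659 in WT cTEC libraries, against 34.4, 126 and 172 in SOD1 and 189, 168 and 104 in WT mTEC libraries. The log2 difference was 2.10 ± 0.40 (edgeR adjusted p = 0.000357). At day 120 the cTEC libraries ranged from 260 to 496 CPM with a median of 356, the mTEC libraries ranged from 75.5 to 271 with a median of 206, and the ranges overlapped. That log2 difference of 1.03 ± 0.37 passed the threshold (edgeR adjusted p = 0.0319) but did not in 5 of the 12 fits that each left out 1 library, where it ranged from 0.86 to 1.16.

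Psmb10 was at 325, 422 and 434 CPM in SOD1 and 247 and 490 in WT cTEC libraries at day 30, and between 152 and 220 in mTEC libraries. The groups did not overlap, with a log2 difference of 0.92 ± 0.29 (edgeR adjusted p = 0.0194). The call was lost when only cTEC and mTEC libraries entered the fit (edgeR adjusted p = 0.0580), with median-of-ratios scaling (0.0829), and without cTEC d30 WT replicate 3 (0.218) or mTEC d30 SOD1 replicate 3 (0.0586). At day 120 Psmb10 ranged from 148 to 287 CPM in cTECs and from 95.7 to 262 in mTECs, and its difference of 0.02 ± 0.27 did not pass (edgeR adjusted p = 0.9999).

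The Psmb8 difference had the opposite sign on the 2 days. At day 30 it had 532, 348 and 322 CPM in SOD1 and 620 and 231 in WT cTEC libraries, and 34.4, 250 and 234 in SOD1 and 258, 245 and 212 in WT mTEC libraries. The ranges overlapped, and the log2 difference of 0.93 ± 0.33 (edgeR adjusted p = 0.0388) was lost under DESeq2 (0.60, adjusted p = 0.115), with median-of-ratios scaling (edgeR adjusted p = 0.0955), with cTEC and mTEC libraries alone (0.117) and without libraries of few counts or genes (0.0606). It was also lost in 6 of the 11 fits that left out 1 library, most of all without cTEC d30 WT replicate 2 (0.49, edgeR adjusted p = 0.428). At day 120 it had 389, 317 and 296 CPM in SOD1 and 247, 121 and 86.3 in WT cTEC libraries, against 638, 521 and 313 in SOD1 and 516, 484 and 276 in WT mTEC libraries. The log2 difference was -1.02 ± 0.32 (edgeR adjusted p = 0.0134). The difference between these differences, tested as a contrast added after the values were seen, was -1.95 ± 0.46 (edgeR adjusted p = 0.0109), while 637 of 21733 genes were called in that contrast, 575 of them downward, around a median of -0.55 over all genes. Myeloid and dendritic cell markers followed Psmb8 only in part of these libraries. In cTEC libraries of day 30, from the highest to the lowest Psmb8, the summed level of 11 such markers was 1016, 768, 287, 140.2 and 123 CPM. In mTEC libraries of day 30, where Psmb8 was lower, it was 241 to 652 CPM, with a median of 524 against 287 in cTECs. It was 0.668 to 134 CPM in cTEC libraries of day 120, where 5 to 10 of the 11 markers were at 0, and 99.3 to 1182 CPM in mTEC libraries of day 120. Their part in the Psmb8 result was not tested.

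The constitutive subunits did not pass the test at either day. Psmb5 had a log2 difference between cTECs and mTECs of 0.76 ± 0.50 at day 30 and -0.33 ± 0.46 at day 120. Psmb6 had differences of 0.46 ± 0.36 and 0.08 ± 0.33. Psmb7 had differences of 0.44 ± 0.46 and -0.81 ± 0.43. In the mTEC d30 SOD1 library of few counts 1 count is worth 34.4 CPM, and Psmb5, Psmb7, Psmb8, Psmb9 and Ly75 each had 1 count there.

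Genes can be ranked against each other only per length. Per kilobase of merged exons, mean levels in cTECs of day 30 were 1715 CPM for Prss16, 1359 for Ctsl, 225 for Psmb11 and for Psmb10, 179 for Psmb5, 165 for Psmb9, 144 for Psmb6, 121 for Psmb8, 99.5 for Ly75 and 48.1 for Psmb7. The SDs over 5 libraries were 692 for Prss16, 521 for Ctsl, 83.3 for Psmb11 and 26.9 for Psmb5, so neither the first pair nor Psmb11 and Psmb5 differed by more than their spread. Per kilobase of the principal transcript Ctsl came before Prss16, at 4476 and 3329 CPM. In mTECs of day 30 Psmb11 was at 3.11 CPM per kilobase of merged exons, below each of the other 9 genes.

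**Figure D2:**
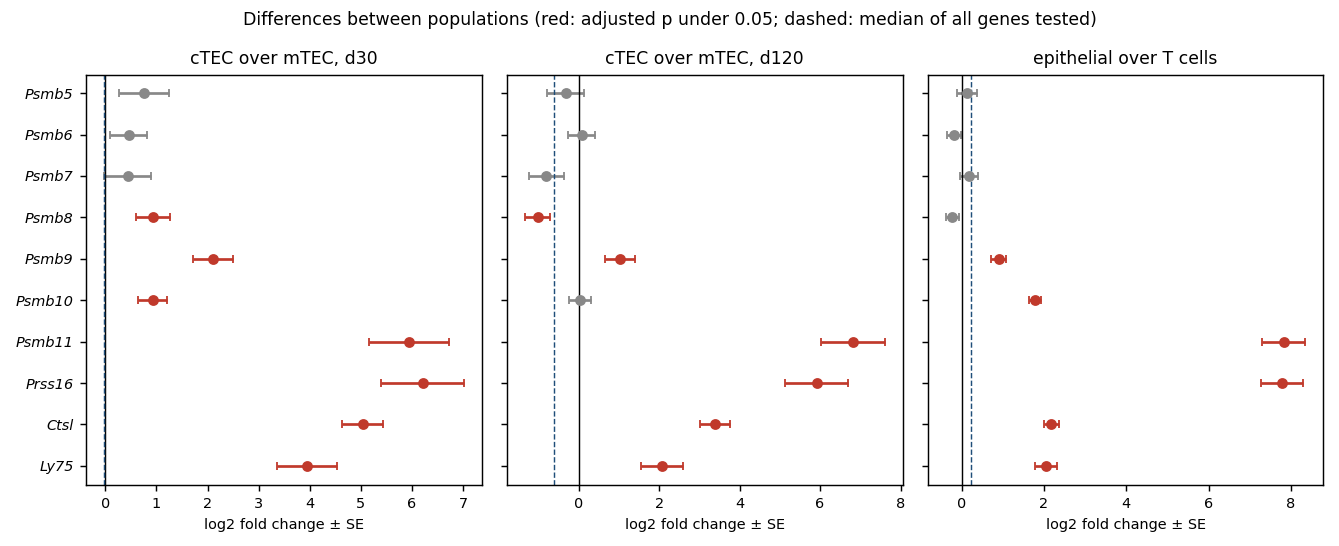
Log2 fold change with its SE for each of the 10 genes (x axis, log2 scale) for cTEC over mTEC at day 30, cTEC over mTEC at day 120 and epithelial over T cells, with red points past an adjusted p of 0.05 and a dashed line at the median of all genes tested. Psmb11 lies at 5.95 and 6.82 in the first 2 panels, and Psmb8 lies at 0.93 in the first and at -1.02 in the second. The third-panel values of Psmb11 and Prss16 involve CD4 groups of day 120 at or near 0 and are no bound.

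The rest of the proteasome was compared by lists, beside 5.69% of all genes higher and 16.6% lower at day 30 and 4.97% and 23.7% at day 120. Of 7 alpha ring subunits, which form the gate of the core particle, 3 were higher in cTECs at day 30 and 1 at day 120, with median log2 differences of 0.86 and 0.23. Of 4 beta subunits without catalytic activity 2 and then 1 were higher, with medians of 0.84 and 0.45. Of 18 subunits of the 19S regulatory particle, which unfolds substrates, 5 were higher at day 30 and none of either sign at day 120, with medians of 0.72 and -0.03. Class I peptide loading genes, such as the transporter and tapasin, had 2 of 10 higher and 1 lower at day 30 and 4 of 10 lower at day 120. Other class II processing genes and lysosomal proteases had 2 of 9 higher and 1 lower at day 30 and 6 of 9 lower at day 120, so Ctsl differed in sign from most of that list at day 120.

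Against T cells the order of the genes changed. Over all 46 sorted libraries 6 of the 10 genes were higher in the epithelial populations than in Tregs and CD4 T cells, none was lower, and 45.7% of all genes were called, 21.9% higher. These were Psmb9 with a log2 difference of 0.90 ± 0.19 (edgeR adjusted p = 0.000113), Psmb10 with 1.79 ± 0.15 (edgeR adjusted p = 1.04e-13), Ctsl with 2.18 ± 0.18 (edgeR adjusted p = 1.90e-13), Ly75 with 2.06 ± 0.27 (edgeR adjusted p = 2.48e-08), Prss16 and Psmb11. No fold is given for the last 2, because Psmb11 was at 0 in all 6 CD4 libraries of day 120 and Prss16 in 5 of them. Their calls rest on levels of at most 6.01 CPM of Psmb11 and 57.8 CPM of Prss16 in any T cell library, and the Psmb11 call was lost when mTEC d120 WT replicate 1 was left out (edgeR adjusted p = 0.99999), with both remaining libraries of that group at 0. Psmb8 was at 209 to 495 CPM in Tregs and 92.8 to 768 CPM in CD4 T cells, and its difference of -0.23 ± 0.16 did not pass. Without cTEC d120 SOD1 replicate 3, Psmb5 and Psmb7 also passed and 8 of the 10 were called.

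Between Tregs and CD4 T cells none of the 10 genes was called by edgeR or by DESeq2, where 5.67% of all genes were, 4.24% higher in Tregs. Ly75 alone of the 10 had an unadjusted p under 0.05 in edgeR, as did 3678 of all 21733 genes. Its log2 difference was 0.80 ± 0.38 (edgeR adjusted p = 0.256), and it passed without the libraries of few counts or genes (0.79, edgeR adjusted p = 0.0374). Ly75 ranged from 22.6 to 52.8 CPM in Tregs and from 11.03 to 38.8 CPM in CD4 T cells.

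Likeness to Psmb11 was measured as the Pearson correlation of the group mean of log2(CPM + 1) over the 16 sorted groups among 15045 genes. It is a description, since the groups share libraries, depth and 1 population with high values. The genes most like Psmb11 were Diras2, a Ras-family GTPase (r = 0.99), Synm, an intermediate filament protein (0.98), Adhfe1, an alcohol dehydrogenase (0.98), P4ha3, a collagen prolyl hydroxylase subunit (0.98), and Plekhb1, a pleckstrin homology domain protein (0.98). Diras2 averaged 374 CPM in SOD1 and 241 in WT cTECs at day 30, then 80.1 and 72.7 at day 120, and at most 9.02 CPM in any group of another population. Among the 10 genes, Prss16 ranked 21 (r = 0.96), Ctsl 107 (0.90), Ly75 182 (0.87), Psmb9 200 (0.86) and Psmb10 263 (0.84). Psmb5 (0.16), Psmb7 (0.03), Psmb6 (-0.02) and Psmb8 (-0.13) had no such likeness.

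Subunit ratios were taken within libraries as the share of the alternative subunit in its pair, from counts per kilobase of merged exons. Psmb11 made up 53.0%, 57.7% and 61.1% of the sum of Psmb11 and Psmb5 in SOD1 cTEC libraries of day 30 and 38.9% and 59.4% in WT. The 95% Wilson interval of the WT library at 38.9%, which covers counting error only, ran from 36.6% to 41.2%, so the distance between the WT libraries was larger than counting error. The mean was 54.0% ± 8.97 (SD, n = 5) in cTECs and 3.05% ± 1.03 (SD, n = 5) in mTECs of day 30, without the mTEC library that had too few counts. All cTEC libraries lay above all mTEC libraries, which gave p = 0.0100 in an exact two-sided permutation test within genotype, the smallest that these numbers of libraries allow, and an adjusted p of 0.0618 over the 68 share comparisons.

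At day 120 the share of Psmb11 was 32.8%, 35.9% and 100% in SOD1 and 25.7%, 60.5% and 30.4% in WT cTEC libraries. The library at 100% is the one of few genes, with 15 counts of Psmb11 and 0 of Psmb5 (Wilson interval 42.3% to 100%). The remaining 5 lay between 25.7% and 60.5%, and in mTECs the share ranged from 0% to 1.44%. The difference of 47.0 percentage points had p = 0.0050, the smallest possible here (exact permutation test, adjusted p = 0.0486). Without libraries of few counts or genes it was 36.1 points with an adjusted p of 0.068 in the exact permutation test. In T cells of the thymus the share of Psmb11 was near 0, at 0.0869% ± 0.0899 in Tregs and 0.446% ± 0.379 in CD4 T cells of day 30. Within mTECs it was 2.58 percentage points lower at day 120 than at day 30 (exact permutation test, adjusted p = 0.0486). Without libraries of few counts or genes that call was lost (exact permutation test, adjusted p = 0.068).

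Psmb9 made up 53.4% ± 3.55 (SD, n = 5) of the sum of Psmb9 and Psmb6 in cTECs and 26.8% ± 5.49 (n = 5) in mTECs of day 30. The groups did not overlap, with p = 0.0100, the smallest possible, in the exact permutation test (adjusted p = 0.0618). At day 120 the shares were 48.4% ± 17.8 and 29.8% ± 3.21 (n = 6 each, exact permutation test, p = 0.0050, adjusted p = 0.0486). The groups did not overlap, with cTECs from 39.2% and mTECs up to 36.0%, and that p was the smallest possible. Without libraries of few counts or genes the distance fell from 18.6 to 11.7 percentage points and the call was lost (exact permutation test, adjusted p = 0.068). It was also lost in 9 of the 12 tests that left out 1 library. With p at its smallest, the adjusted p depends on the number of libraries and on the other comparisons. A lost call alone therefore does not show a smaller difference. In CD4 T cells the share of Psmb9 was 29.2% ± 3.53 (n = 5) at day 30 and 15.3% ± 6.30 (n = 6) at day 120 (exact permutation test, adjusted p = 0.0486). CD4 d120 WT replicate 3, with 8.44 CPM of Psmb9, gave 2.54%, and the other 5 CD4 libraries of day 120 gave at most 18.9%.

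For Psmb8 the T cell populations differed. Psmb8 made up 54.0% ± 3.86 (n = 12) of the sum of Psmb8 and Psmb5 in Tregs and 48.8% ± 6.13 (n = 11) in CD4 T cells (permutation test within day and genotype, p = 0.000263, adjusted p = 0.0178). The call was lost without CD4 d120 SOD1 replicate 2, CD4 d120 WT replicate 1 or CD4 d30 WT replicate 3 (permutation test, adjusted p = 0.0567 each). The test did not use the replicate number, although same-numbered Treg and CD4 libraries deviated together in 10 of 11 pairs. A paired version was not run. In cTECs of day 30 the Psmb8 share ranged from 24.5% to 55.9% and in mTECs from 32.2% to 45.6%. Psmb10 made up 81.9% ± 3.23 and 85.5% ± 8.90 of the sum of Psmb10 and Psmb7 in cTECs of day 30 and day 120, 75.7% ± 4.60 and 75.8% ± 8.46 in mTECs, and between 53.9% and 61.9% on average in the T cell sets. In the exact permutation test its cTEC to mTEC comparisons gave p = 0.0300 at day 30 (adjusted p = 0.128) and p = 0.0400 at day 120 (adjusted p = 0.151).

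The size of a share depends on the length used. With the length of the principal transcript in place of merged exons, the same 7 of the 68 share comparisons passed, while the mean share of Psmb8 in cTECs of day 30 was 56.8% and that of Psmb10 was 66.7%. Some of the genes resemble or overlap other loci. The processed pseudogene Gm3375 is 98.9% identical to Psmb5 over 796 bases and held 4313 counts over the sorted libraries against 38636 of Psmb5. Psmb7 overlaps Nek6 on the opposite strand (31281 against 44839 counts) and Psmb9 overlaps the start of Tap1 for 212 bases, so where strand was not used their counts cannot be told apart, and these levels are uncertain to that extent.

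**Figure D3:**
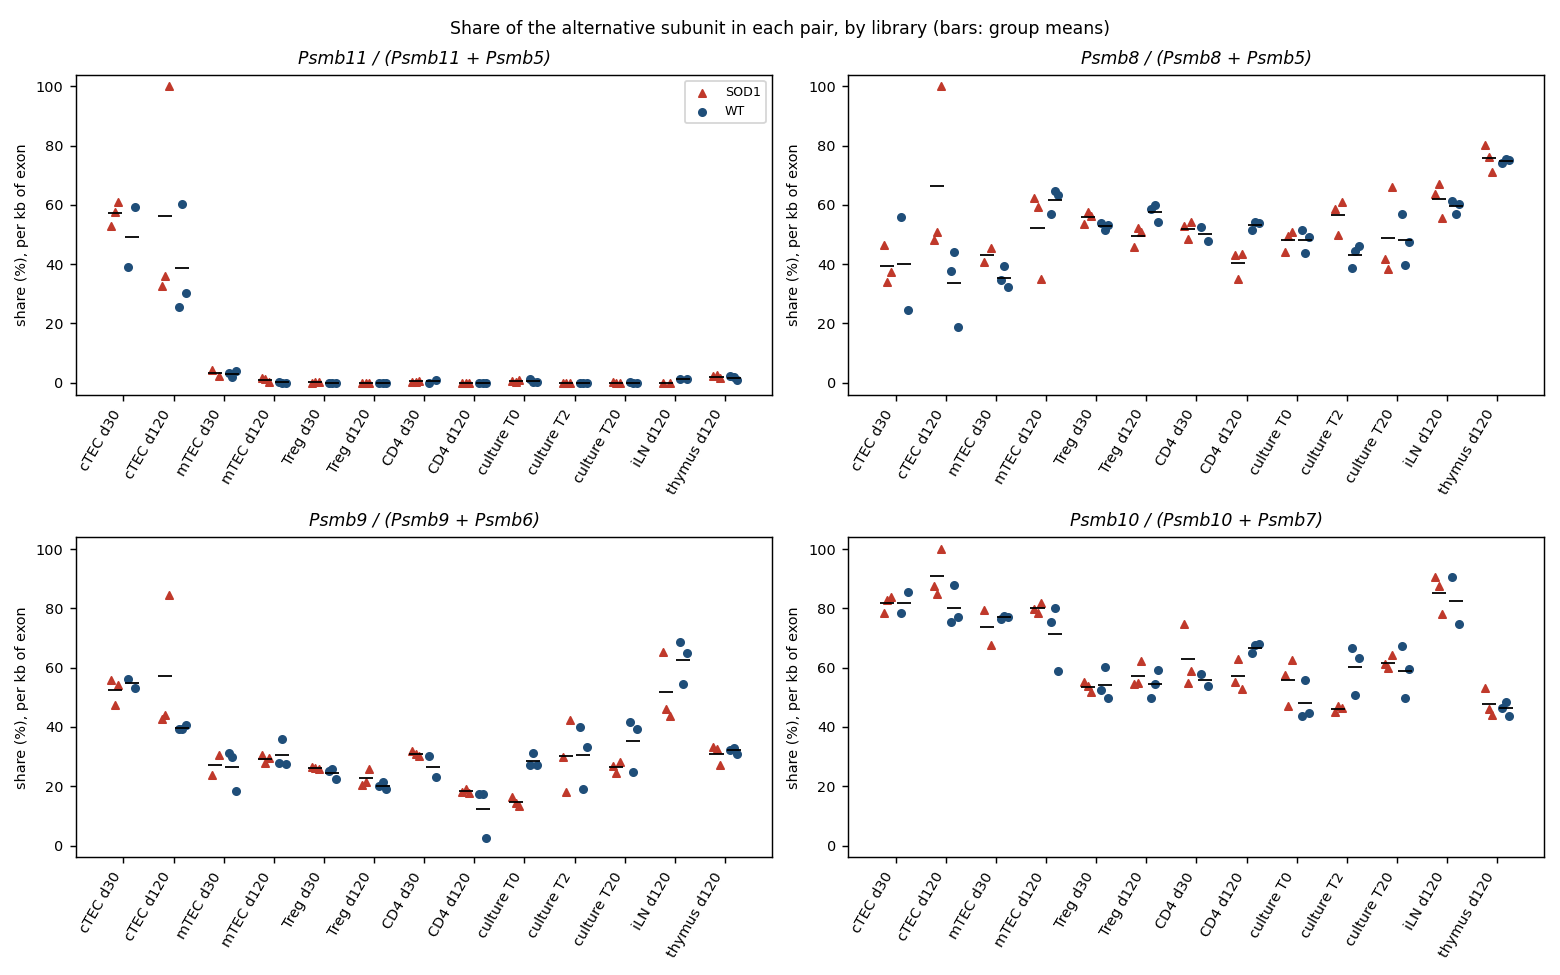
Share of Psmb11 and Psmb8 over Psmb5, of Psmb9 over Psmb6 and of Psmb10 over Psmb7 in each library (y axis, percent of the pair per kilobase of exon) by population, day, culture time and tissue (x axis), with triangles for SOD1, circles for WT and bars for group means. The Psmb11 share is high in cTEC libraries alone among the 13 sets drawn, between 25.7% and 61.1% apart from 1 library of few genes at 100%, and the thymus points come from deposited TPM, another scale than the rest.

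The second question was how the genes changed from day 30 to day 120. In cTECs none of the 10 passed in edgeR, with 4.63% of all genes called, 1.61% higher and 3.02% lower, while 3 had an unadjusted p under 0.05 and DESeq2 called 1. Of all 14620 genes tested, 2616 had an unadjusted p under 0.05 in edgeR. Psmb11 averaged 1080 CPM ± 399 (SD, n = 5) at day 30 and 218 ± 112 (n = 6) at day 120, and no library of day 120 reached the lowest of day 30. Its log2 change was -2.08 ± 0.58 (edgeR adjusted p = 0.0593), and DESeq2 gave -2.11 (adjusted p = 0.0306). Prss16 averaged 7173 ± 2894 and 2766 ± 1138 CPM, a change of -1.09 ± 0.33 (edgeR adjusted p = 0.0829), and Ly75 averaged 687 ± 239 and 178 ± 104 CPM, a change of -1.80 ± 0.79 (edgeR adjusted p = 0.245). Without cTEC d120 SOD1 replicate 3, Psmb11 (-1.82, edgeR adjusted p = 0.00792) and Ly75 (-1.52, edgeR adjusted p = 0.00785) were lower at day 120, and all 5 remaining libraries had less Psmb11 than any library of day 30. Prss16 was lower without cTEC d120 WT replicate 2 (-1.37, edgeR adjusted p = 0.0423). The median change was -0.79 over the 10 genes and -0.30 over all genes tested.

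Other cell markers differed between the same cTEC libraries. Double-positive thymocyte markers summed to 828 to 1518 CPM at day 30 and 17.4 to 260 at day 120, and 4 of 10 were lower. Myeloid and dendritic markers summed to 123 to 1016 and 0.668 to 134 CPM, and 5 of 11 were lower, while 4 of 11 mTEC markers were higher. The 9 cTEC markers outside the 10 genes summed to 6338 to 20579 CPM at day 30 and 8161 to 22090 at day 120, and 1 was lower. Foxn1 was at 113 to 332 and 49.4 to 133 CPM, a log2 change of -1.15 ± 0.42 (edgeR adjusted p = 0.153). The part of these differences in the changes of Psmb11, Prss16 and Ly75 was not tested, and in bulk libraries fewer cells of a type and less RNA per cell cannot be told apart.

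In mTECs, Ctsl alone was higher at day 120, with 3.16% of all genes called. It averaged 255 ± 65.3 CPM (SD, n = 6) at day 30 and 587 ± 286 (n = 6) at day 120, and the lowest library of day 120, at 325, lay just above the highest of day 30, at 324. The log2 change was 1.16 ± 0.30 (edgeR adjusted p = 0.0480), and the call was lost in 9 of the 12 fits that left out 1 library. Psmb8 changed by 1.06 ± 0.29 (206 ± 85.4 to 458 ± 138 CPM; edgeR adjusted p = 0.0656), Prss16 by -1.03 ± 0.27 (91.6 ± 27.2 to 46.1 ± 8.40 CPM; edgeR adjusted p = 0.0529) and Psmb11 by -3.25 ± 0.91 (14.9 ± 10.1 to 2.72 ± 3.29 CPM; edgeR adjusted p = 0.0706). These 3 missed the threshold in the main edgeR fit, while DESeq2 called 4 of the 10 genes. Ly75 changed by -0.10 (edgeR adjusted p = 0.96) with all 12 libraries. Without mTEC d120 WT replicate 3, the library with the highest Ly75, its change was -1.02 (edgeR adjusted p = 0.0442), and Psmb8 (1.15, edgeR adjusted p = 0.0309), Prss16 (-1.04, edgeR adjusted p = 0.0437) and Psmb11 (-3.01, edgeR adjusted p = 0.0429) passed as well. Prss16 also passed without mTEC d30 SOD1 replicate 1 (-1.12, edgeR adjusted p = 0.0366), and Psmb11 without mTEC d120 WT replicate 1 (edgeR adjusted p = 0.0138).

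In Tregs, Psmb6 was higher and Ly75 lower at day 120, with 29.9% of all genes called. Psmb6 rose from 218 ± 21.95 to 285 ± 78.1 CPM, a log2 change of 0.34 ± 0.11 (edgeR adjusted p = 0.0365), and lost the call in 10 of the 12 fits without 1 library. Ly75 fell from 45.8 ± 6.19 to 31.0 ± 7.22 CPM, a log2 change of -0.59 ± 0.16 (edgeR adjusted p = 0.0129), and kept the call in all 12. Psmb8 had a log2 change of -0.32 ± 0.12 (edgeR adjusted p = 0.0699) and passed without Treg d120 WT replicate 1 (-0.42, edgeR adjusted p = 0.0179) or Treg d30 SOD1 replicate 3 (-0.39, edgeR adjusted p = 0.0446), and Psmb5 had one of -0.28 ± 0.13 (edgeR adjusted p = 0.139) and passed without Treg d120 SOD1 replicate 1 (-0.40, edgeR adjusted p = 0.0349). In CD4 T cells Prss16 alone was called, with 10.6% of all genes called, 4.66% higher and 5.92% lower. It was at 57.8, 7.97 and 47.1 CPM in SOD1 and 2.09 and 38.7 in WT libraries of day 30, and at 0 in 5 of 6 libraries and 3.25 in the last at day 120 (edgeR adjusted p = 0.0127). Without CD4 d30 WT replicate 3 the call was lost (edgeR adjusted p = 0.0708), and no fold is given since SOD1 libraries of day 120 were all at 0. Psmb11 moved with it, at 0 to 6.01 CPM and 0 throughout, and the 9 cTEC markers summed to 7.66 to 98.4 CPM in CD4 libraries of day 30 and 2.53 to 18.6 at day 120. Their part in the Prss16 result was not tested. Psmb8 had a log2 change of -0.78 ± 0.30 in CD4 T cells (edgeR adjusted p = 0.104), and passed without CD4 d120 WT replicate 1 (-0.98, edgeR adjusted p = 0.0283).

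**Figure D4:**
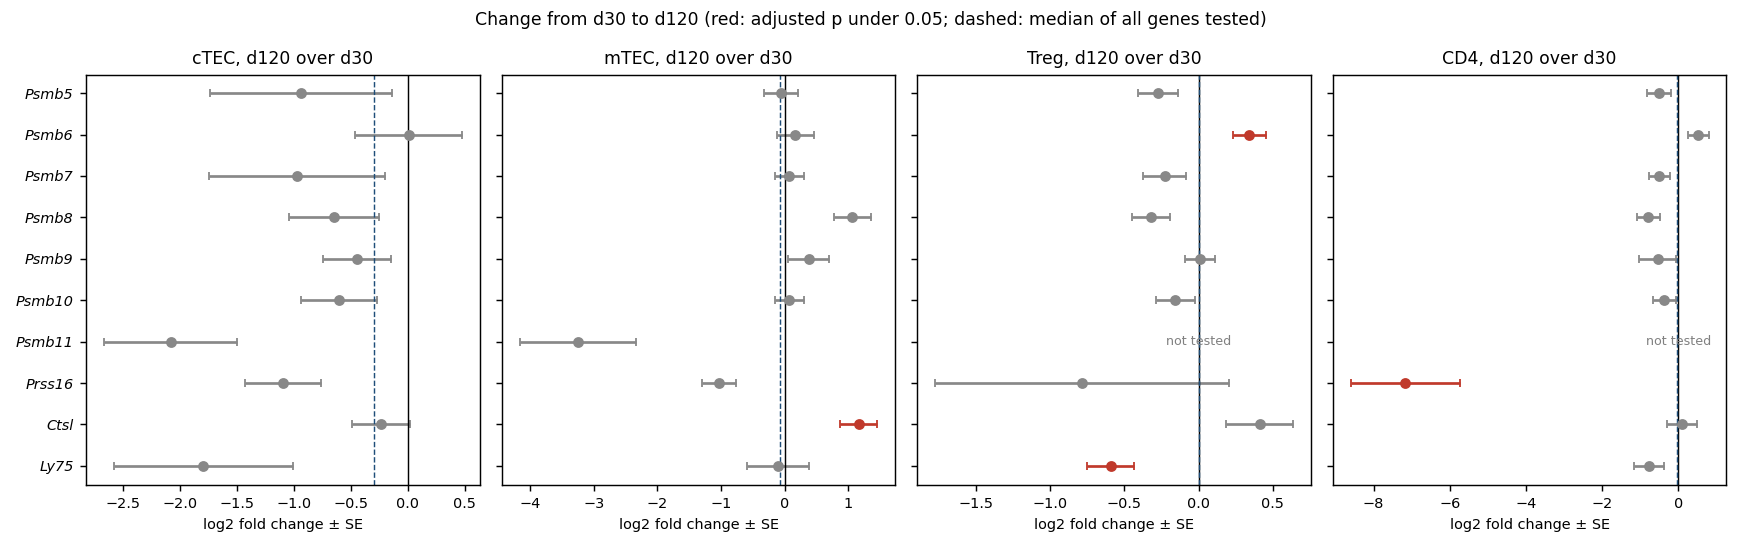
Log2 fold change from day 30 to day 120 with its SE for each of the 10 genes (x axis, log2 scale) in cTECs, mTECs, Tregs and CD4 T cells, with red points past an adjusted p of 0.05 and a dashed line at the median of all genes tested. The cTEC panel has no red point, with Psmb11 at -2.08 and Ly75 at -1.80, and the CD4 value of Prss16 comes from a group at 0 and is no bound.

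The third question was whether the SOD1 genotype changed the genes. None of the 10 was called in edgeR in any comparison of SOD1 with WT. In cTECs 0.00684% of all genes were called at day 30 and at day 120, in mTECs 0.00529%, in Tregs 0.0135%, in CD4 T cells 0.00801%, and for the difference between the days 0% in each population. In cTECs Psmb11 had a log2 difference of 0.23 ± 0.86 at day 30 and -0.55 ± 0.77 at day 120. In Tregs Psmb9 had a difference of 0.37 ± 0.14 at day 30 and 0.28 ± 0.14 at day 120.

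Some values had an unadjusted p under 0.05 in edgeR. So did 1327 of all 14620 genes in cTECs and 1546 of 18919 in mTECs of day 120. In Tregs it was 220 of 14824 genes at day 30 and 999 at day 120. The member with such a p in cTECs of day 120 was Psmb8, at 389, 317 and 296 CPM in SOD1 and 247, 121 and 86.3 in WT, with a log2 difference of 1.17 ± 0.54 (edgeR adjusted p = 0.540). The SOD1 libraries all lay above the WT ones, and the summed myeloid markers were 134, 64.2 and 0.668 CPM in SOD1 and 32.6, 45.1 and 15.9 in WT. In mTECs of day 120 it was Psmb11 (3.13 ± 1.29, edgeR adjusted p = 0.508), with the values given above. In Tregs of day 30 it was Psmb9, and in those of day 120 Psmb5, Psmb10 and Ly75. Where the genotypes did not overlap, here or below, the share of all genes that separate them was not counted.

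Psmb5 in Tregs of day 120 was at 152, 112 and 75.9 CPM in SOD1 and 77.3, 54.7 and 47.3 in WT. The ranges met, and the log2 difference was 0.76 ± 0.19 (edgeR adjusted p = 0.587), while DESeq2 called it (0.74, adjusted p = 0.0479). Ly75 in the same libraries was at 22.6, 22.7 and 29.3 CPM in SOD1 and 38.7, 36.0 and 36.8 in WT, and the groups did not overlap (log2 difference -0.70 ± 0.22, edgeR adjusted p = 0.673). In CD4 T cells none of the genes tested had an unadjusted p under 0.05 at either day. DESeq2 called no other of the 10 genes between the genotypes in sorted cells.

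In culture, cells at the activation times were compared with those without activation, which had the low Treg markers given above. At T2 and at T20, 7 of the 9 genes tested were higher than at T0 and Ctsl was lower, where 58.1% and 58.2% of all genes were called. Of all genes tested 23.8% and 24.1% were higher and 34.3% and 34.1% lower. The median log2 change of the 9 was 1.30 at T2 and 1.503 at T20, and that of all genes was -0.24 and -0.25. The constitutive and the immunoproteasome subunits rose together. The genes of a Treg signature moved with them, with a summed level of 108 to 581 CPM at T0 and 2307 to 5880 at T2 and all 10 genes higher, and their part in these changes was not tested.

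**Figure D5:**
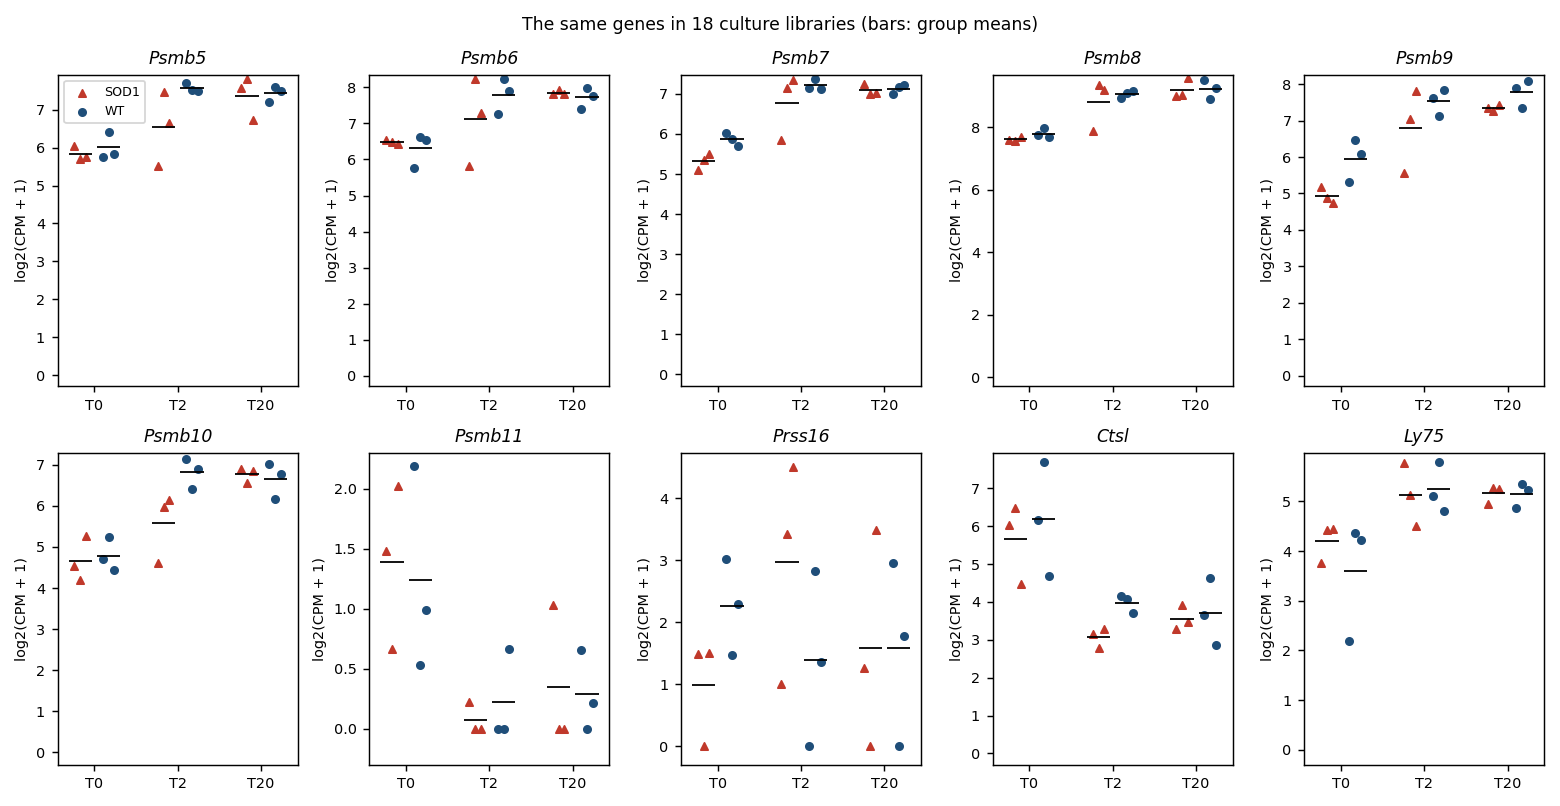
Level of each of the 10 genes as log2(CPM + 1) on the y axis in the 18 culture libraries at T0, T2 and T20 (x axis), with triangles for SOD1, circles for WT and bars for group means. The 6 constitutive and immunoproteasome subunits and Ly75 stand higher at T2 and T20 than at T0, apart from 1 SOD1 library at T2 whose proteasome levels lie near those of T0, and Ctsl stands lower.

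Psmb9 showed the largest rise among the 9, from 34.9, 28.5 and 25.7 CPM in SOD1 and 39.2, 87.3 and 66.7 in WT at T0. At T20 it had 162, 154 and 173 CPM in SOD1 and 236, 163 and 273 in WT. The groups did not overlap, and the log2 change was 2.10 ± 0.31 (edgeR adjusted p = 1.68e-05) after 1.79 ± 0.31 at T2 (edgeR adjusted p = 7.96e-05). Psmb10 rose by 1.44 ± 0.29 at T2 (edgeR adjusted p = 0.000384) and by 1.99 ± 0.29 at T20 (edgeR adjusted p = 1.59e-05), from 17.5 to 37.3 CPM at T0 to 70.8 to 130 at T20. Psmb8 rose by 1.30 ± 0.23 and 1.54 ± 0.23, from 190 to 249 CPM at T0 to 485 to 772 at T20 (edgeR adjusted p = 0.000128 and 2.81e-05).

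The constitutive subunits rose by similar amounts. Psmb5 rose by 1.22 ± 0.28 at T2 and 1.503 ± 0.277 at T20, Psmb6 by 1.22 ± 0.30 and 1.37 ± 0.30, and Psmb7 by 1.47 ± 0.23 and 1.54 ± 0.23 (edgeR adjusted p from 1.78e-05 to 0.00213). The Psmb8 share was 48.2% ± 3.38 at T0, 49.7% ± 8.55 at T2 and 48.5% ± 11.01 at T20 (SD, n = 6 each). The Psmb9 share was 21.6% ± 7.86, 30.4% ± 10.2 and 30.9% ± 7.57, and the Psmb10 share was 51.9% ± 7.79, 53.2% ± 9.38 and 60.3% ± 5.96. No share of these 3 immunoproteasome pairs passed between culture times. The Psmb11 share was called lower at T2 and at T20 than at T0 (exact permutation test, adjusted p = 0.0486 each). It averaged 0.577%, 0.0217% and 0.0325% at T0, T2 and T20, from 11, 4 and 17 counts of Psmb11 in all. The library labelled T2 SOD1 replicate 1 stood apart, with 44.8 CPM of Psmb5, 55.5 of Psmb6 and 237 of Psmb8, near the T0 levels, but 7.97 CPM of Ctsl. Without it 8 genes were called as well at both times.

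Ctsl was at 64.4, 87.8 and 21.4 CPM in SOD1 and 71.2, 206 and 24.5 in WT at T0, between 5.94 and 16.8 at T2 and between 6.30 and 23.6 at T20. T0 and T2 did not overlap while T0 and T20 did, and the log2 change was -2.93 ± 0.48 at T2 (edgeR adjusted p = 5.00e-05) and -2.84 ± 0.49 at T20 (edgeR adjusted p = 8.57e-05). Summed fibroblast and endothelial markers were also lower, at 160 to 306 CPM at T0, 14.6 to 91.3 at T2 and 0 to 33.3 at T20. Summed myeloid and dendritic markers overlapped, at 14.2 to 26.3, 8.10 to 26.1 and 9.15 to 88.8 CPM. The part of other cells in the Ctsl change was not tested. Ly75 rose by 1.21 ± 0.29 and 1.01 ± 0.30 (edgeR adjusted p = 0.00185 and 0.00765). Psmb11 did not pass the filter on low counts and had at most 3.56 CPM in any culture library, and Prss16 stayed at 0 to 21.7 CPM with no call.

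The rest of the proteasome moved with the catalytic subunits. Of the 7 alpha ring genes 6 were higher at both times, of the 4 noncatalytic beta genes all 4, of the 18 genes of the 19S particle 15, and of 9 activator and assembly genes 7 at T2 and 8 at T20. Class I peptide loading had 6 and 7 of 10 higher. Between T20 and T2 no gene of the table was called by edgeR (0%), 457 genes had an unadjusted p under 0.05 and DESeq2 called 1, and none of the 10 had an unadjusted p under 0.05. Between SOD1 and WT cultures none of the 10 was called by edgeR or DESeq2, with 0.0679% of all genes called at T0 and 0.0933% at both T2 and T20. Psmb9 at T0, with the values given above, was lower in each SOD1 library than in each WT library, with a log2 difference of -1.18 ± 0.43 (edgeR adjusted p = 0.817), and at T2 Psmb5 and Psmb10 had an unadjusted p under 0.05. Of all 11787 genes tested, 629 had such a p at T0 and 1035 at T2.

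In inguinal lymph node, 7 of the 10 genes passed the filter on low counts and none differed between genotypes in edgeR or DESeq2, where 0.0574% of all genes were called. Psmb9 was at 118, 121 and 114 CPM in SOD1 and 253, 114 and 227 in WT, ranges that overlapped, and it alone of the 7 had an unadjusted p under 0.05 (log2 difference -0.82 ± 0.35, edgeR adjusted p = 0.968). Of all 5226 genes tested in lymph node, 261 had such a p. The Psmb10 share there was 84.3% ± 7.46 (SD, n = 5) and the Psmb9 share 57.2% ± 10.7 (n = 6). These shares rest on few counts, with 192 of Psmb10, 64 of Psmb7, 298 of Psmb9 and 102 of Psmb6 over all 6 libraries.

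In whole thymus all 10 genes were tested on log2(TPM + 1) and none differed between genotypes in limma, where 0.0831% of all genes were called and none of the 10 had an unadjusted p under 0.05. Psmb11 was at 2.93, 4.32 and 2.90 TPM (transcript abundance scaled for length and depth) in SOD1 and 3.66, 3.42 and 1.65 in WT, with full overlap. Ctsl varied most, at 552, 643 and 128 TPM in SOD1 and 154, 871 and 93.5 in WT, so its log2 difference of 0.61 ± 0.92 was within its error. Prss16 was at 22.1, 50.7 and 17.2 TPM in SOD1 and 35.7, 12.8 and 10.7 in WT (log2 difference 0.62 ± 0.53, limma adjusted p = 0.999). The immunoproteasome subunits were steadier, with Psmb8 between 455 and 538 TPM, Psmb9 between 119 and 141 and Psmb10 between 146 and 214.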

How the data were processed

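RNA was taken from sorted thymic populations, whole thymus, inguinal lymph node and cultures labelled as Tregs, and libraries of sorted cells were made with a SMART-Seq v4 low-input kit, per the labels' protocols. The deposited tables hold the authors' raw counts per gene for sorted cells, cultures and lymph node. For whole thymus they hold the authors' TPM values, normalised by the authors for length and depth, so the depth there is unknown. The submitters' processing notes name mm10 and DESeq2 with no role; for the aligner and the strand used in counting, the sources used here give nothing. Gene names come from the whole thymus table, joined by gene identifier. The members and gene lists were chosen with earlier results of these data known.

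Counts were fitted per table with edgeR 4.0.16 quasi-likelihood tests (TMM scaling, filter on low counts by group, Benjamini-Hochberg over all genes, threshold 0.05). Population comparisons used 1 fit over all 46 sorted libraries; age and genotype used a fit per population with age averaged over genotypes. CPM are on TMM-scaled library sizes, and folds are edgeR log2 fold changes, with SE derived from the F statistic. Whole thymus was tested with limma 3.58.1 (trend) on log2(TPM + 1), keeping genes that averaged 1 TPM or more, which understates changes of low genes. Shares use counts per kilobase of merged exons, need 10 counts in the pair, and were tested by permutation of libraries within strata. Alternatives were DESeq2 1.42.0, median-of-ratios scaling, no filter, the replicate block, smaller fits, libraries left out and other lengths. Overlaps used GENCODE vM21 models, to which 55394 of 55487 identifiers matched, and BLAST 2.17.0 for copies. R 4.3.3, Python 3.11.15, pandas 2.3.3 and matplotlib 3.10.9 were used, and the tests were checked on simulated data. Among 68 replicate pairs none was identical or within sampling noise. Promoters were found in the RefSeq table for 8 of the 10 genes. Named genes were all 10 members, their lists, and the 5 genes most like Psmb11.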

Additional observations from a re-analysis of the deposited data

Results flagged for a closer look

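Psmb8 was flagged because its difference between cTECs and mTECs was not the same on the 2 days. The log2 difference between cTECs and mTECs was 0.93 ± 0.33 at day 30 and -1.02 ± 0.32 at day 120, and the test of the difference between them, added after the values were seen, gave -1.95 ± 0.46 (edgeR adjusted p = 0.0109). The edgeR adjusted p was 0.0169 without libraries of few counts or genes and 0.0809 with cTEC and mTEC libraries alone. The mTEC mean went from 206 ± 85.4 to 458 ± 138 CPM and the cTEC mean went from 411 ± 160 to 243 ± 118 CPM (SD, n = 5 or 6). Neither change passed alone in the main edgeR fit. The mTEC change passed with DESeq2 (1.03, adjusted p = 0.00355), median-of-ratios scaling (1.05, edgeR adjusted p = 0.0353) and no filter (1.08, edgeR adjusted p = 0.0130). It also passed without mTEC d120 WT replicate 3 (1.15, edgeR adjusted p = 0.0309), but not with the replicate number as a block. Summed myeloid and dendritic markers had a median of 287 CPM at day 30 and 38.8 CPM at day 120 in cTEC libraries, and of 524 and 781 CPM in mTEC libraries, and their part was not tested.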

How the results depend on the processing

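All calls named here are at an adjusted p of 0.05. Between cTECs and mTECs the number of the 10 genes called stayed at 5 to 7 at day 30 and 5 to 6 at day 120 under every alternative, and in cultures at T2 and T20 it stayed within 1.5 times the value in the text. The log2 change of Ly75 with age in mTECs, -0.10 in the text and not called, was 0.10 without mTEC d120 WT replicate 1 and 0.11 without replicate 2, against -1.02 and called without replicate 3. Of the other counts, that for Tregs against CD4 T cells was 1 without libraries of few counts or genes. For age in cTECs it was 1 with DESeq2 or median-of-ratios scaling, 3 with no filter and 2 without libraries of few counts or genes, and 0 to 2 with 1 library left out. For age in mTECs it was 4 with DESeq2, 2 with median-of-ratios scaling and 3 with no filter, and 0 to 4 with 1 library left out. For age in Tregs it was 1 to 2 with 1 library left out. For age in CD4 T cells it was 3 with no filter and 0 to 2 with 1 library left out, and DESeq2 gave 1 gene for genotype in Tregs of day 120. Of the 68 share comparisons 7 passed, but 1 with counts not divided by length and 1 without libraries of few counts or genes. Most adjusted p were close to 0.05, and most share calls were lost when any library was left out. Apart from the Psmb8 share between Tregs and CD4 T cells, each call already had the smallest p that its exact permutation test allows. Its adjusted p then depends on the number of libraries and on the other comparisons, so a lost call alone does not show a smaller difference. The causes were not tested.

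With the replicate number as a block, the count for age was 0 in mTECs and 2 in CD4 T cells, and no other count of members called moved by over 1.5 times. Same-numbered Treg and CD4 libraries deviated together in 10 of 11 pairs (correlation over 0.1), T2 and T20 cultures in 5 of 6 and cTECs and mTECs in 0 of 11, so the numbers were not shown to pair all samples.

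The count of all genes called for age was 677 in cTECs (DESeq2 1647, no filter 1353, block 203, without libraries of few counts or genes 1805), 597 in mTECs (943, 1256, 333 and 704) and 1321 in CD4 T cells (DESeq2 2575, no filter 2096). For genotype in sorted cells it was 0 to 2, against 3 to 218 with DESeq2 and 2 to 222 with no filter. For genotype in cultures it was 8 to 11, against 11 to 39 with DESeq2, 64 to 122 with no filter, 2 to 8 without libraries of few counts or genes and 0 to 10 with the 2 groups alone. It was 1233 between Tregs and CD4 T cells (1890 without libraries of few counts or genes), 0 between T20 and T2 (43 with no filter) and 3 for genotype in lymph node (40 with no filter, 1 with the block). In the fits of population differences without 1 library, the spread estimated with all libraries was kept. Depth limits low members where totals were under 300000 counts, in 1 mTEC, 4 culture and 2 lymph node libraries.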
